A study of Homo sapiens with 4 samples.

Results

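The D cyclins (CCND1, CCND2, CCND3), the E cyclins (CCNE1, CCNE2), the kinases CDK4 and CDK6 and the retinoblastoma family (RB1, RBL1, RBL2) were followed in LAD cells with and without active AKT1. These 10 genes were taken by symbol from the 60558 genes of the RNA sequencing, with Ensembl identifiers translated to symbols by GENCODE, and all 10 were found. The cells were A549 and HCC827, established human lines that the sample labels call NSCLC, each transduced with a vector control or with myr-AKT1, a constitutively active AKT1 that a myristoyl anchor holds at the membrane. The groups were therefore A549-vector and A549-myr-AKT1 in the former line and HCC827-vector and HCC827-myr-AKT1 in the latter, with 1 library each, and the cells of a pair shared the parental line. Whether the cells were clones or pools, the time since transduction and the culture density were not given in the sources used here.

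These genes form the gate of the G1 phase. Cyclins of the D type are made in response to mitogens and switch on CDK4 and CDK6, which begin to phosphorylate RB1 and its relatives RBL1 (p107) and RBL2 (p130), and cyclin E with CDK2 carries this on. Phosphorylated RB proteins let go of the E2F transcription factors, whose targets include the genes for DNA replication and, in a loop, genes for cyclin E and p107, whereas in resting cells p130 joins E2F and the MuvB proteins in the repressive DREAM complex. AKT acts on this circuit largely at the protein level, by phosphorylating GSK3B, which marks cyclin D1 for degradation, and the CDK inhibitors p21 and p27. Protein and phosphorylation were not measured here.

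RBL1 was among the genes lower in both lines with myr-AKT1 and RBL2 was not. The promoter sequences of these relatives are therefore shown side by side. That of CCNE1 is added as the E cyclin with an entry among the RefSeq promoters used here. The windows are the 250 bases before the start, read 5′ to 3′ on the gene's strand, on GRCh38.p14, at chr20:37095998-37096247 on the minus strand for RBL1, chr16:53434221-53434470 on the plus strand for RBL2, where the entry nearest the 5′ end of the gene was taken, and chr19:29811741-29811990 on the plus strand for CCNE1. Capitals mark 8-letter E2F words.
RBL1: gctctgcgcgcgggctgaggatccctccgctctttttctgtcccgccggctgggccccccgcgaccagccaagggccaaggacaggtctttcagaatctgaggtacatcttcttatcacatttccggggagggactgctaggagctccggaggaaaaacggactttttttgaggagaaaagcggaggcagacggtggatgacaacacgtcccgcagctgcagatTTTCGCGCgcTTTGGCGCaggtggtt
RBL2: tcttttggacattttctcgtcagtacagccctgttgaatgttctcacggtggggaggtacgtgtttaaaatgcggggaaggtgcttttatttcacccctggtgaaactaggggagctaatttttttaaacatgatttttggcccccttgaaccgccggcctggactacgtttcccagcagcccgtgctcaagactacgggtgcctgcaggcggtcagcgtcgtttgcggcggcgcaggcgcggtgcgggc
CCNE1: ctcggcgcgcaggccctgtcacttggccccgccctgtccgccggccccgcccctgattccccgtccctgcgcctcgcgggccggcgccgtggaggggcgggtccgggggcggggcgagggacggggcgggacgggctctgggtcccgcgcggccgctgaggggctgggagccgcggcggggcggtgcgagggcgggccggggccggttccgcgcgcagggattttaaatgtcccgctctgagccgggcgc

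The words searched for were TTTCCCGC, TTTCGCGC, TTTGCCGC and TTTGGCGC, the forms of the E2F recognition sequence, on both strands, in windows from 250 bases before to 50 after each RefSeq start. RBL1 held TTTCGCGC at positions -26 to -19 and TTTGGCGC at -16 to -9 from its start, on its own strand, and these words did not overlap. At least 1 word was present in 3.31% of 35116 RefSeq promoters and 2 or more in 0.145%. The RefSeq promoters used here held entries for 7 of the 10 genes (11 promoters), and no word was found in the other windows. CCND1, CCND2 and CCNE2 had no entry in this set, so their promoters were not searched. The RB1 window lies 173 kb inside the gene as GENCODE gives it, so the 5′ end of RB1 was not searched. The starts of CCND3 lay 1.67, 109 and 111 kb inside the gene, that of CDK4 3.70 kb and those of RBL2 0.494 and 1.64 kb. The GENCODE 5′ ends of these genes therefore also fell outside the windows. Among the 17 S phase target genes with an entry, 11 held a word. This counts genes, whereas the shares above are of promoters. Among the genes with an entry that could be compared in A549, 781 held a word and 11366 did not. A word is a string match and not a measured binding site, and its absence says only that these letters were not in the window.

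Each deposited value is the number of reads of a gene over the size factor of its library, referred to here as a normalized count, and whole reads could be recovered from them. Gene positions below are those of GENCODE on GRCh38, the build the reads were mapped to. Recovered reads ranged from 16322183 to 33530317 per library. AKT1 had 4243 normalized counts in vector and 6297 in myr-AKT1 cells of A549 and 2175 against 4805 in HCC827, without separation of construct and endogenous reads. All 5 epithelial markers (EPCAM, CDH1, KRT8, KRT18, KRT19) were present in every library, and the 3 leukocyte markers together had at most 7.18 counts on a scale common to the 4 libraries. On that scale, the sum of 3 fibroblast markers was 69.9 in A549-vector against 724 in A549-myr-AKT1 cells and 53.9 against 214 in the HCC827 pair, mostly COL1A1, with DCN and COL3A1 at 0 in 1 vector library each. The sum of 3 endothelial markers was 10.9 against 123 in A549 and 84.8 against 159 in HCC827. Of the 3 lung lineage markers, NKX2-1 had 0 and 8 reads, SFTPB 0 and 0 and NAPSA 48 and 30 reads in A549-vector and A549-myr-AKT1 cells. In HCC827-vector and HCC827-myr-AKT1 cells NKX2-1 had 1993 and 702 reads, NAPSA 4520 and 1597 and SFTPB 42 and 2. EGFR, the HCC827 marker, was higher in both HCC827 libraries than in A549, with 153714 normalized counts in HCC827-vector and 68423 in HCC827-myr-AKT1 cells. The A549 markers AKR1C1 and AKR1B10 had 11.9 and 715 normalized counts in HCC827-vector and 2640 and 6391 in HCC827-myr-AKT1 cells. The epithelial markers had log2 fold changes in HCC827 of -1.81 (KRT8), -1.75 (KRT18), -0.75 (KRT19), -0.22 (EPCAM) and 0.31 (CDH1). The part of these markers in the results below was not tested.

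With 1 library per condition no difference within a line has a replicate check, and no test was made there. A difference is given as the log2 fold change of myr-AKT1 over vector with a 95% Clopper-Pearson interval from the reads, which covers counting error only, and a gene was called higher or lower at a log2 fold change of 1 or more in either direction with a mean of at least 10 normalized counts. In A549, 9 of the 10 genes could be compared. CCNE2 and RBL1 were called lower and 0 were called higher, against 9.86% of 18688 genes called lower and 14.8% called higher. In HCC827, CCND1, CCNE2, CDK4, CDK6 and RBL1 were called lower and CCND3 higher (5 and 1 of 9), against 12.5% of 17306 genes lower and 14.0% higher. The median log2 fold change of the 9 genes was -0.49 in A549 and -1.07 in HCC827, beside -0.04 over all genes tested in each line. CCNE2 and RBL1 were lower in both lines, as were 4.08% of the 15668 genes tested in both, and 0 of the 9 were higher in both, against 4.52%. In bulk RNA, fewer cells in a phase of the cell cycle and less RNA per cell cannot be told apart.

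**Figure D1:**
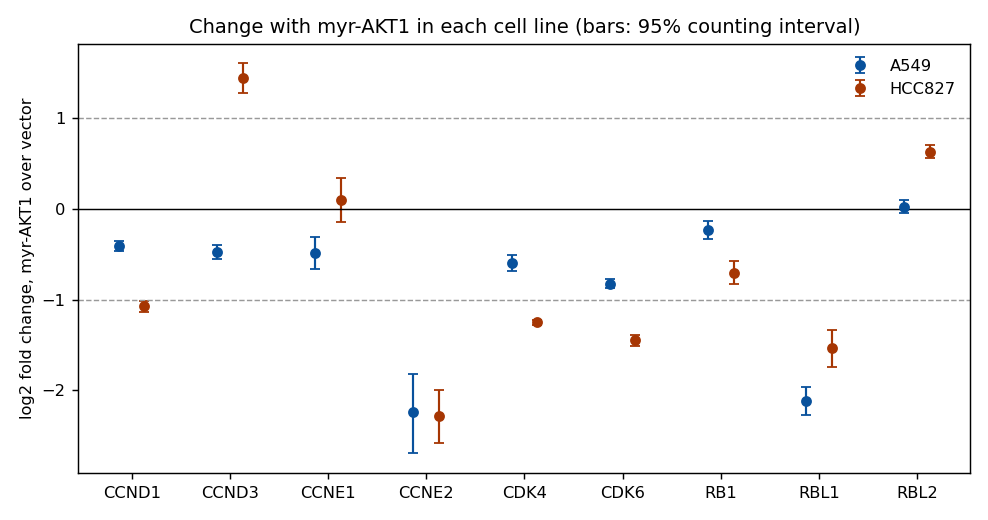
Log2 fold change of myr-AKT1 over vector for the 9 genes that could be compared, in A549 (blue) and HCC827 (red). Bars are 95% counting intervals and dashed lines mark a log2 fold change of 1 in either direction. CCND3 was the gene whose intervals lay on opposite sides of 0 in the 2 lines.

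The D cyclins are the regulatory subunits of CDK4 and CDK6. CCND1 (chr11:69641156-69654474, plus strand), the form most often amplified in epithelial tumours, had 7156 normalized counts in A549-vector and 5396 in A549-myr-AKT1 cells, a log2 fold change of -0.41 (-0.46 to -0.36). In HCC827 it had 7740 against 3679, a log2 fold change of -1.07 (-1.13 to -1.01). The HCC827 value lay just past the threshold and was -0.99 when the libraries were scaled to total reads, so that its call was lost, and the A549 value did not reach it. The A549 log2 fold change minus that of HCC827 was 0.67 (0.59 to 0.74).

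CCND3 (chr6:41934934-42050357, minus strand), a D cyclin prominent in lymphoid cells, had values in opposite directions in the 2 lines. It had 3188 normalized counts in A549-vector and 2294 in A549-myr-AKT1 cells, a log2 fold change of -0.48 (-0.55 to -0.40), which was not called. In HCC827 it had 395 against 1072, a log2 fold change of 1.44 (1.28 to 1.60), the only call for a higher value among the members. The difference between the lines was -1.92 (-2.09 to -1.74), and with 1 pair per line it was not tested over replicates. Even after this increase HCC827-myr-AKT1 cells held less CCND3 than either A549 library on the common scale, with 1233 counts against 2054 and 2660.

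CCND2 (chr12:4269771-4305353, plus strand), the D cyclin of many haematopoietic and neural cells, was at the detection limit. It had 1 read in A549-vector, 2 in A549-myr-AKT1, 1 in HCC827-vector and 0 in HCC827-myr-AKT1 cells. All 4 were below the 3 reads that a count of 0 allows, equal to 2.38 to 3.77 normalized counts, so no fold change is given and a difference was not detectable at this depth.

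The balance of the D cyclins differed between the lines. Shares per kilobase, here and below, depend on the annotated exon length, since the transcripts in use were not measured. Compared per kilobase of annotated exon, CCND1 made up 73.1% of the D cyclin level in A549-vector and 74.0% in A549-myr-AKT1 cells, with CCND3 at 26.9% and 26.0%. In HCC827, CCND1 made up 95.9% in vector and 80.6% in myr-AKT1 cells, and CCND3 4.05% and 19.4%. The ratio of CCND3 to CCND1 within a library, which no scaling of libraries can alter, changed by a log2 value of -0.07 (-0.16 to 0.03) with myr-AKT1 in A549 and by 2.51 (2.34 to 2.69) in HCC827. The shift in HCC827 came from a higher CCND3 and a lower CCND1 value, and the A549 interval held 0.

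The E cyclins, partners of CDK2, parted in both lines. CCNE2 (chr8:94879770-94896678, minus strand) had 282 normalized counts in A549-vector and 59.5 in A549-myr-AKT1 cells, based on 323 reads and on 52, with a log2 fold change of -2.24 (-2.70 to -1.82). In HCC827 it had 687 against 141, based on 865 reads and on 112, and the log2 fold change was -2.29 (-2.58 to -2.001). These values were 4.74-fold and 4.88-fold lower with myr-AKT1, with a difference between the lines of 0.04 (-0.47 to 0.55) on the log2 scale, the smallest among the members. CCNE2 had the lowest log2 fold change of the members in each line, although in A549 its counting interval overlapped that of RBL1.

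CCNE1 (chr19:29811991-29824312, plus strand) was called in neither line. It had 641 against 457 normalized counts in A549, a log2 fold change of -0.49 (-0.67 to -0.31), and 283 against 303 in HCC827, a log2 fold change of 0.10 (-0.14 to 0.34). The HCC827 interval held 0. The difference between the lines was -0.59 (-0.88 to -0.29).

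As a result the makeup of the pair moved towards CCNE1. Per kilobase, CCNE1 was 80.2% of the E cyclin level in A549-vector and 93.2% in A549-myr-AKT1 cells. In HCC827-vector cells it was the minor form, with 42.4%, and in HCC827-myr-AKT1 cells the major form, with 79.4%. The CCNE2 to CCNE1 ratio changed by a log2 value of -1.76 (-2.24 to -1.29) in A549 and -2.39 (-2.77 to -2.01) in HCC827, and neither interval held 0. The gene INTS8, an Integrator subunit annotated on the opposite strand and overlapping CCNE2, had 3123 against 2575 normalized counts in A549 and 4561 against 3545 in HCC827. The sources used here do not give the strand setting of the read counting, so for overlapping genes on opposite strands a share of reads from the partner cannot be told apart.

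CDK4 and CDK6, the catalytic partners of the D cyclins, had negative log2 fold changes in both lines and were called lower in HCC827. CDK6 (chr7:92604921-92836573, minus strand) had 8947 normalized counts in A549-vector and 5056 in A549-myr-AKT1 cells, a log2 fold change of -0.82 (-0.87 to -0.77). In HCC827 it had 8302 against 3039, a log2 fold change of -1.45 (-1.51 to -1.39). Its vector values were close in the 2 lines and its difference between the lines was 0.63 (0.54 to 0.71). CDK4 (chr12:57747727-57756013, minus strand) had 2822 against 1871 in A549, a log2 fold change of -0.59 (-0.68 to -0.51). In HCC827 it had 47490 against 19954, for which the log2 fold change was -1.25 (-1.28 to -1.23), and its difference between the lines was 0.66 (0.57 to 0.75).

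The ratio of the 2 kinases moved less than either gene. The CDK6 to CDK4 ratio changed by a log2 value of -0.23 (-0.33 to -0.13) in A549 and -0.20 (-0.27 to -0.13) in HCC827. Per kilobase, CDK4 made up 55.5% and 59.4% of the pair in A549-vector and A549-myr-AKT1 cells, and 95.8% and 96.3% in the HCC827 libraries. CDK4 and CDK6 were thus of similar level in A549, and CDK4 was by far the larger in HCC827.

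The RB family divided in both lines, with RBL1 lower, RBL2 not lower and RB1 between them. RBL1 (chr20:36996349-37095997, minus strand), which encodes p107, had 2018 normalized counts in A549-vector and 464 in A549-myr-AKT1 cells, a log2 fold change of -2.12 (-2.28 to -1.97), or 4.35-fold lower. In HCC827 it had 904 against 312, a log2 fold change of -1.53 (-1.74 to -1.33), or 2.90-fold lower. Both were called, and the difference between the lines was -0.59 (-0.84 to -0.34).

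RB1 (chr13:48303744-48599436, plus strand), the tumour suppressor after which the family is named, was called in neither line. It had 1826 against 1559 normalized counts in A549, a log2 fold change of -0.23 (-0.33 to -0.13), and 1461 against 898 in HCC827, a log2 fold change of -0.70 (-0.83 to -0.58). RBL2 (chr16:53433977-53491648, plus strand), which encodes p130, was not called either. It had 3146 against 3198 in A549, a log2 fold change of 0.02 (-0.05 to 0.10), and 2653 against 4105 in HCC827, a log2 fold change of 0.63 (0.56 to 0.70). The A549 interval of RBL2 held 0, whereas both intervals of RB1 lay below 0.

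RBL2 was the largest member of the family in every library, and its share was larger with myr-AKT1. Per kilobase, the shares of RB1, RBL1 and RBL2 were 28.1%, 33.5% and 38.4% in A549-vector and 33.9%, 10.9% and 55.2% in A549-myr-AKT1 cells. In HCC827 they were 32.2%, 21.5% and 46.3% in vector and 20.001%, 7.505% and 72.5% in myr-AKT1 cells. The RBL1 to RBL2 ratio changed by almost the same amount in the 2 lines, by log2 values of -2.15 (-2.32 to -1.98) in A549 and -2.16 (-2.38 to -1.95) in HCC827. The routes differed, since against RB1 the change of RBL1 was -1.89 (-2.08 to -1.71) in A549 and -0.83 (-1.07 to -0.59) in HCC827, and that of RBL2 was 0.25 (0.13 to 0.38) and 1.33 (1.19 to 1.48).

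**Figure D2:**
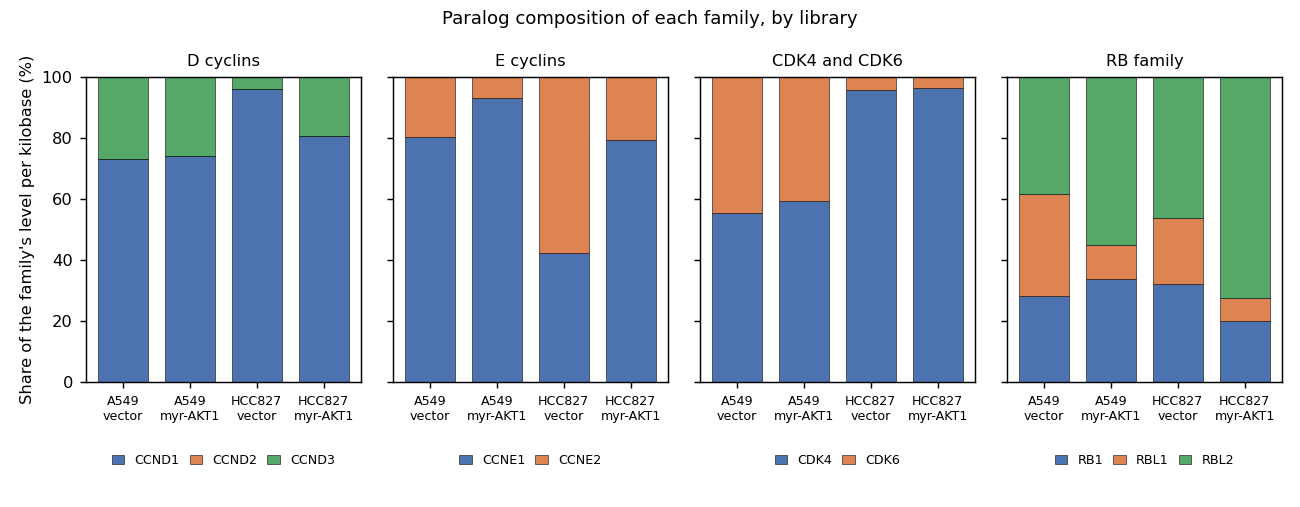
Share (%) of each family's level per kilobase that each gene held in each library, as stacked bars. The CCND2 share is too small to be seen. CCND3 grew from 4.05% to 19.4% of the D cyclins in HCC827, CCNE1 gained in both lines, the CDK4 share differed between the lines more than between conditions, and RBL2 reached 55.2% and 72.5% of the RB family.

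The conditions have more than 1 library only when both lines enter a single fit. In limma on log2(normalized count + 1) with the line as a block, which leaves 1 residual degree of freedom, CCNE2 and RBL1 were the members that passed at an adjusted p under 0.05 (Benjamini-Hochberg over 19314 genes), both lower, against 1.73% of genes lower and 1.29% higher. At an unadjusted p under 0.05 limma gave 5 members lower and 0 higher, against 18.4% of all genes in either direction. At the adjusted threshold edgeR called 2 members lower and DESeq2 3, with 0 higher, against 1.18% and 2.68% of all genes lower. CCNE2 had a log2 fold change of -2.25 (SE 0.40, adjusted p = 0.0317, lower in 2 of 2 lines), with adjusted p between 1.8e-05 and 0.999999 over the 8 alternatives and under 0.05 in 4. RBL1 had -1.82 (SE 0.30, adjusted p = 0.0271, lower in 2 of 2 lines), with adjusted p from 8.9e-06 to 0.999999 over the alternatives and under 0.05 in 5. These calls therefore depended on the settings of a fit with very little replication.

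The other members did not pass. In limma, CDK6 had a log2 fold change of -1.14 (SE 0.26, adjusted p = 0.0674), which passed under 2 of the 8 alternatives (range 6.6e-04 to 0.999999). CDK4 had -0.92 (SE 0.27, adjusted p = 0.124), and passed under 1 (range 0.0078 to 0.999999). CCND1 with -0.74 (adjusted p = 0.195), RB1 with -0.46 (0.416), CCNE1 with -0.19 (0.825), RBL2 with 0.33 (0.573) and CCND3 with 0.48 (0.616) passed under none. For CCND3 the limma estimate averaged opposite values of the 2 lines.

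The levels of the genes were then compared per kilobase, on the scale common to all libraries. The length is that of all annotated exons of a gene, such as 3094 bases for CDK4 and 5761 for CCND3. Which transcripts were in use was not measured, and the intervals below do not cover the length, so the order may depend on it. In A549-vector cells the order was CCND1 (1254), CDK4 (761), CDK6 (610), CCND3 (462), RBL2 (324), RBL1 (283), RB1 (237), CCNE1 (217), CCNE2 (53.5) and CCND2 (0.0912), and no neighbours of this order were within counting error, although RB1 and CCNE1 were close, with a ratio of 1.09 (1.001 to 1.19). In A549-myr-AKT1 cells RBL1 fell from the sixth to the eighth place, and CDK6, CCND3 and RBL2 (370, 357 and 353) could not be ordered beyond counting error. CCND1 headed both A549 libraries.

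HCC827 cells had another order, headed by CDK4. In HCC827-vector cells CDK4 stood at 17070 per kilobase, followed by CCND1 (1808), CDK6 (754), RBL2 (364), RB1 (253), CCNE2 (174), RBL1 (169), CCNE1 (128), CCND3 (76.2) and CCND2 (0.111), with CCNE2 and RBL1 not separated (ratio 1.03, 0.94 to 1.13). In HCC827-myr-AKT1 cells the order was CDK4 (7417), CCND1 (889), RBL2 (582), CDK6 (286), CCND3 (214), RB1 (161), CCNE1 (142), RBL1 (60.3), CCNE2 (36.9) and CCND2 (0), with RB1 and CCNE1 not separated (ratio 1.13, 0.98 to 1.32). RBL2 had passed CDK6, and CCNE2 had dropped from the sixth to the ninth place.

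Between the vector libraries, CDK4 was the member that differed most. On the common scale it had 52813 counts in HCC827-vector and 2355 in A549-vector cells, a log2 difference of 4.49 (4.44 to 4.54) or 22.4-fold, and it ranked 15 among all genes per kilobase in HCC827-vector against 1188 in A549-vector cells. After myr-AKT1 it ranked 62 in HCC827, with a log2 difference to A549-myr-AKT1 of 3.78 (3.70 to 3.85). Of 17367 genes compared between the vector libraries, 18.4% were higher in HCC827 by a log2 value of 1 or more and 18.8% were lower, and CDK4 stood at percentile 97.3. CCNE2 was also higher in HCC827-vector (log2 difference 1.70, 1.51 to 1.89), and CCND3 was 6.06-fold higher in A549-vector (log2 difference -2.60, -2.74 to -2.46). The other 6 members lay between -0.77 and 0.53.

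The genes around CDK4 were examined after its level had been seen. Of 26 other genes tested within 500 kb, the median log2 difference of HCC827-vector over A549-vector was 0.01 and 5 were above 1. These were PIP4K2C, a phosphoinositide kinase, with 4.96, OS9, a lectin of protein quality control in the endoplasmic reticulum, with 4.11, the tetraspanin TSPAN31 with 2.79, AGAP2 with 1.57 and MARCHF9 with 1.24. The values of other neighbours reached down to -5.20. None of these 5 was lower with myr-AKT1 to the extent of CDK4, whose log2 fold change in HCC827 was -1.25. There, the log2 fold change was 0.38 for PIP4K2C, 0.75 for OS9, 1.39 for TSPAN31, 0.78 for MARCHF9 and -0.12 for AGAP2. TSPAN31 and MARCHF9 are annotated on the opposite strand and overlap CDK4, and TSPAN31 had 3065 normalized counts in HCC827-vector and 8012 in HCC827-myr-AKT1 cells.

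**Figure D3:**
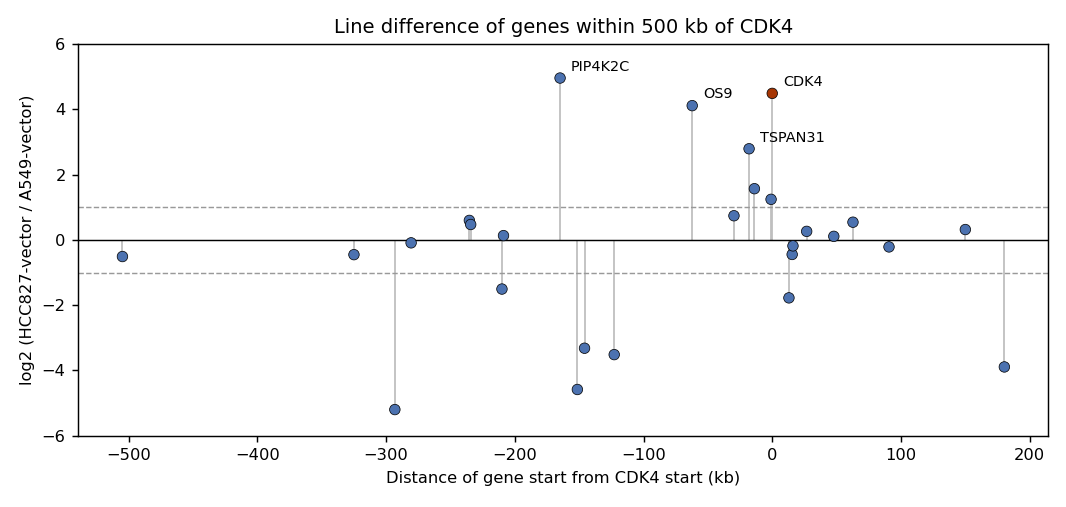
Log2 difference between HCC827-vector and A549-vector cells for CDK4 (red) and 26 other genes, against the distance of each gene's start from that of CDK4 (kb). Dashed lines mark a log2 difference of 1 in either direction. CDK4, PIP4K2C, OS9 and TSPAN31 stood out at 2.79 to 4.96, and the remaining genes lay at -5.20 to 1.57.

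The E2F transcription factors, only some of which the RB proteins hold in check, were lower where they were called. Of 10 E2F and DP genes, 5 were called lower in A549 and 3 in HCC827, with 0 higher and medians of -0.95 and -0.88, and 2 passed in limma, both lower. Over all genes tested, 9.86% were called lower in A549 and 12.5% in HCC827, 14.8% and 14.0% higher, and 1.73% lower in limma. The activator E2F1 had 1244 against 180 normalized counts in A549 (log2 fold change -2.79) and 849 against 438 in HCC827 (-0.95, not called). E2F8 and E2F7, atypical repressors, had -3.69 and -3.05 in A549 and -1.67 and -1.39 in HCC827, and the activator E2F2 had -3.64 and -1.40. E2F8 and E2F7 were the genes of the list that passed in limma (adjusted p = 0.0408 and 0.0428). Each passed under 2 of the 8 alternatives, and edgeR called 0 and DESeq2 5 of the 10 (edgeR adjusted p = 0.0610 for E2F8 and 0.0642 for E2F7).

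The 21 E2F target genes of S phase entry moved together. Called lower were 20 in A549 and 20 in HCC827, 19 of them in both lines, with 0 higher, medians of -2.74 and -1.61, and 18 lower in limma. The shares of all genes called lower were 9.86% in A549, 12.5% in HCC827, 4.08% in both and 1.73% in limma. The replicative helicase subunits MCM2 and MCM5 had log2 fold changes of -3.15 and -3.13 in A549 and -2.40 and -2.40 in HCC827, and the helicase loader CDC6 -3.38 and -2.06. CCNA2, the S phase cyclin, had 3194 against 405 normalized counts in A549 (-2.98) and 2592 against 901 in HCC827 (-1.52). CDK2, the partner of the E cyclins, had 2289 against 767 in A549 (-1.58) and 1272 against 745 in HCC827 (-0.77, not called). The list ran from -3.38 to -0.79 in A549 and from -2.40 to -0.77 in HCC827. Of the 10 genes of the gate, CCNE2 and RBL1 lay within these ranges in both lines, and so did CDK6, at the upper edge in A549.

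Of 6 MuvB and DREAM genes, 3 were called lower in A549 and 2 in HCC827, against 9.86% and 12.5% of all genes. In limma 2 passed, both lower, against 1.73% of all genes lower. These were FOXM1, a factor of mitotic genes, with -2.96 and -1.20 (adjusted p = 0.0399), and the core subunit LIN9 with -1.81 and -1.79 (adjusted p = 0.0304). FOXM1 lost its call in edgeR (adjusted p = 0.0637) and passed under 2 of the 8 alternatives, and LIN9 passed under 5. The core subunits LIN37, LIN52 and RBBP4 were called in neither line.

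Among the CDK inhibitors the calls were for higher values. Of 5 genes tested in A549 and 7 in HCC827, 3 were higher in each and 0 lower, with medians of 1.12 and 0.29. Over all genes, 14.8% were higher in A549 and 14.0% in HCC827. CDKN1A, which encodes p21, had 1964 against 10512 normalized counts in A549 (log2 fold change 2.42) and 82.7 against 691 in HCC827 (3.06), and was the inhibitor that passed in limma (2.73, adjusted p = 0.0074, under 0.05 in 6 of 8 alternatives). CDKN1C (p57) had 1.12 and 1.70 and CDKN2D (p19) 1.16 and 1.27, from 23 to 78 reads per library. CDKN1B, which encodes p27, had 0.04 (-0.06 to 0.15) and 0.28 (0.19 to 0.38) and was not called.

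Of 8 genes of the CDK-activating kinase and the CDC25 and WEE1 type regulators, 3 were called lower in each line and 0 passed in limma at the adjusted threshold. Over all genes, 9.86% were lower in A549 and 12.5% in HCC827. PKMYT1, an inhibitory kinase of CDK1, had -3.44 and -1.71, and the activating phosphatases CDC25C and CDC25A had -2.86 and -1.13, and -2.25 and -1.06. At an unadjusted p under 0.05, limma gave 4 of the 8, all lower, against the 18.4% of all genes above, and PKMYT1 was the nearest to the adjusted threshold (adjusted p = 0.0515). At the adjusted threshold, edgeR called 0 and DESeq2 1 of the 8.

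The turnover machinery of the D and E cyclins was mostly not called. Of 15 genes tested in A549, 3 were lower and 1 higher, and of 14 in HCC827, 1 was lower and 1 higher, with medians of -0.30 and -0.11. Over all genes, 9.86% were lower and 14.8% higher in A549, and 12.5% and 14.0% in HCC827. SKP2, the F-box protein that recognises p27 and free cyclin E, was lower in both (1384 against 499 normalized counts and 1769 against 584, log2 fold changes -1.47 and -1.60) and passed in limma (adjusted p = 0.0307, under 0.05 in 5 of 8 alternatives). FBXW7, the F-box protein for phosphorylated cyclin E, had 0.19 and -0.05, and GSK3B, a kinase of cyclin D1 and an AKT substrate, had 0.32 and 0.37.

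Most other cyclins and cyclin-dependent kinases were not called. The shares over all genes were 9.86% lower and 14.8% higher in A549, and 12.5% and 14.0% in HCC827. Of 16 other cyclins, 4 were lower in A549 and 2 in HCC827, CCNA2 and CCNB1 in both, and 1 was higher in HCC827. CCNB1, the mitotic cyclin, had -2.75 and -1.27 (limma adjusted p = 0.0308, edgeR 0.0516, under 0.05 in 3 of 8 alternatives). Of 16 other cyclin-dependent kinases, 2 were lower and 1 higher in A549 and 1 was lower in HCC827, and CDK1 was lower in both (-2.48 and -1.18, limma adjusted p = 0.0349, edgeR 0.0546, under 0.05 in 2 of 8 alternatives). The medians were -0.13 and -0.12 for the cyclins and 0.01 and -0.08 for the kinases.

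The genes with patterns most like those of the members with the largest changes were sought among 13462 genes, by the Euclidean distance between log2 values centred on each gene's mean over the 4 libraries. Nearest to RBL1 were TEDC2 (distance 0.12), the histone gene H2BC5 (0.13) and the thymidylate synthase gene TYMS (0.23). TYMS had log2 fold changes of -2.04 and -1.61. Nearest to CCNE2 were DENND2A (0.39), ANLN (0.43), which encodes a cytokinesis scaffold, and ORC1 (0.46), a subunit of the origin recognition complex, with -2.73 and -1.89. Nearest to CDK6 were SSX2IP (0.07), FANCL (0.08) and SYNCRIP (0.09), at -0.82 to -0.87 in A549 and -1.40 to -1.47 in HCC827. TYMS and ORC1 also belong to the list of S phase targets.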

How the data were processed

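RNA of 4 cultures (A549 and HCC827, vector or myr-AKT1) was sequenced by the authors as strand-marking libraries, 1 per condition. The sample labels name removal of ribosomal RNA and the study's methods a poly(A) selection. After trimming, the authors used Bowtie2 for mapping to hg38 and HTSeq for the value of each Ensembl gene. The strand setting and annotation release of this count are not given in the sources used here. The methods name RPKM, but the deposited signal is the number of reads over a size factor of the library, set within a line (0.873 with myr-AKT1 and 1.15 with vector in A549, 0.795 and 1.26 in HCC827). Dividing by the worth of 1 read gave whole reads (tolerance 0.001) for all genes but 1 in each vector library. Groups came from the labels, and p-values refer only to these 4 samples. In limma as reported they rest mostly on a variance shared across genes (6.77 prior against 1 residual degree of freedom). That 1 degree is the difference between the lines in their change, not a spread of replicates.

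GENCODE 44 named 60261 of 60558 identifiers, 297 had no match. Within a line, log2 ratios of deposited values without a pseudocount were given with 95% Clopper-Pearson intervals from the reads, and calls needed an absolute log2 fold change of 1, a mean of at least 10 and a read in both libraries. Ratios of paralogs used reads alone. Levels across lines used size factors estimated over all 4 libraries, and comparison between genes used kilobases of the union of annotated exons. The fit over both lines was limma 3.58.1 (trend) on log2(value + 1) with line as a block, on genes kept by filterByExpr. Alternatives were edgeR 4.0.16 (quasi-likelihood, TMM) and DESeq2 1.42.0 (Wald) on recovered reads, other scalings, pseudocounts and filters, and no block. Scripts ran in R 4.3.3 and Python 3.11.15 and were tested on simulated data. Intervals and floors cover counting error only.

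The members and the pathway lists were chosen with earlier results of these data known, and a list's count is no independent support. CCNA2, CDC25A, CDK1 and CDK2 are each in more than 1 list. All 10 members are named, with up to 3 genes per list that were called in both lines in the same direction by largest mean change, 8 genes in any case (CCNA2, CDK2, E2F1, FBXW7, SKP2, GSK3B, CDKN1A, CDKN1B), the 3 nearest genes for the 3 members with the largest change, and marker genes. The CDK4 neighbours and the genes that stand beside a count were chosen after their values were seen. Promoter sequences are from RefSeq (GRCh38.p14).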

Additional observations from a re-analysis of the deposited data

Results flagged for a closer look

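CCND3, the D cyclin that was higher with myr-AKT1 in HCC827, was singled out because its counting intervals lay on opposite sides of 0 in the 2 lines. The log2 fold change was -0.48 in A549 and 1.44 in HCC827, so that A549 minus HCC827 was -1.92. The difference was not tested, because each line has 1 pair of libraries.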

How the results depend on the processing

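Of 48 counts recomputed under the alternatives, 40 were within 1.5 times the reported value and 8 were not, and no result changed its direction. Without a filter beyond 1 read in each library, 1 member was called higher in A549 in place of 0, namely CCND2 on 2 reads against 1. At an absolute log2 fold change of 2, HCC827 had 1 member lower (CCNE2) in place of 5 and 0 higher in place of 1. In the fit over both lines, 2 members were lower with limma, and 0 with size factors over all 4 libraries, 0 with a pseudocount of 0.1, 1 with a pseudocount of 10, 4 with a filter of at least 1 read in any library and 0 with no block. Over all genes limma called 0 with a pseudocount of 0.1 and 0 with no block, with 3184 and 631 genes at an unadjusted p under 0.05, against 250 higher and 335 lower as reported, 196 and 228 with edgeR and 621 and 518 with DESeq2. With size factors over all 4 libraries limma called 60 higher and 101 lower, with a pseudocount of 10 it called 105 and 207, and with the any-read filter 1101 and 894. The cause was not tested. Within a line, 73 of 84 recomputed values of members or pairs moved by less than their counting interval. The pairs among these were recomputed per kilobase, where the exon length cancels, so they could not move and are no check. The size factors over all 4 libraries moved the median of all A549 genes by 0.10. Leaving out a replicate was not possible with 1 library per condition, since a fit on 3 libraries has no residual degrees of freedom. The fit with the line as a block is itself the paired analysis, 1 vector and 1 myr-AKT1 library per line, and the labels give no replicate numbers for another pairing. The scalings of the difference between lines were chosen after seeing the data, and 1 member had opposite directions under each. CCNE2 in A549-myr-AKT1 cells rested on 52 reads, which limits its precision.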

Other observations

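CDKN1A, which encodes p21, was 17.8-fold higher in A549-vector than in HCC827-vector cells on the common scale, with 1639 against 91.9 counts. The neighbouring INK4 genes CDKN2A and CDKN2B, whose products inhibit CDK4 and CDK6, had 0 reads in both A549 libraries, a line known to lack this locus, and 3452 against 2586 and 455 against 471 normalized counts in HCC827-vector and HCC827-myr-AKT1 cells. A count of 0 allows up to 3 reads, or 2.62 and 3.44 normalized counts in A549-vector and A549-myr-AKT1 cells. These genes were named after their values were seen.

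Genes with an entry among the RefSeq promoters used here were also compared by word. Those with at least 1 of the 4 E2F words stood at a median of -0.29 on the log2 fold scale in A549 (781 genes). Without a word the median was -0.05 (11366 genes). The shares lower by a log2 value of 1 or more were 18.4% with and 8.02% without a word. In HCC827 the medians were -0.21 (748 genes) and -0.04 (10743 genes), and the shares 16.04% and 10.5%. These are descriptions across genes of single libraries, and genes are not replicates.

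Some genes of the lists were called in 1 line. Lower in A549 alone were E2F1, TFDP1, CDK2, LIN54, CKS1B, CCNB2, CCNF and USP28, and in HCC827 alone PCNA. All had negative values in the other line except USP28, a deubiquitinase, with -1.27 in A549 and 0.39 (0.30 to 0.48) in HCC827. Close to the threshold in HCC827 were TFDP1 (-0.98), CCNB2 (-0.98), LIN54 (-0.97) and E2F1 (-0.95). CKS1B had -0.90, CCNF -0.87 and CDK2 -0.77 there, and PCNA had -0.79 in A549. Higher in 1 line alone were USP2, CCNO and CDK18. In A549 CRYAB was also called higher, but it could not be compared in HCC827. CRYAB, a small heat shock protein that with FBXO4 marks cyclin D1 for turnover, had 25.3 against 426 normalized counts in A549 (log2 fold change 4.07) and 0 against 3 reads in HCC827. USP2, a deubiquitinase of cyclin D1, had 2.004 (1.11 to 2.97) in HCC827 on 38 against 15 reads and -0.08 in A549. CCNO had 1.37 in HCC827 and -0.01 in A549, and CDK18 had 1.36 in A549 and 0.68 in HCC827. Whether the lines differed in these genes was not tested.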
